A study of Mus musculus with 4 samples.

Results

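The genes described here are 9 members of the clotting and clot-dissolving systems: F3, Tfpi, F10, Thbd, F13a1, Plau, Plat, Plaur and Thbs1. They were chosen by name, as the rows of the deposited matrices with these symbols, from 55450 listed genes, and all 9 were detected in each library. The libraries hold single cells of the mid-colon of mice 7 weeks of age, kept free of specified pathogens. The 2 control libraries, control 1 and control 2, came from mice on clean water, and the 2 treated libraries, DSS 1 and DSS 2, from mice that drank 3% dextran sulfate sodium (DSS) for 2 days. DSS damages the surface epithelium of the colon and is widely used to start experimental colitis. The labels do not state that the libraries of a group came from separate animals, so every p-value here measures the spread between libraries, which may be technical.

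Clotting starts when blood meets tissue factor, the product of F3, which sits on the surface of cells outside the vessel lumen. Tissue factor with factor VII activates factor X, the product of F10, and factor X then makes thrombin, which turns fibrinogen into fibrin. The product of Tfpi blocks the start of this chain, the product of Thbd binds thrombin on cell surfaces and turns it to an anticoagulant role, and the product of F13a1 crosslinks fibrin. Fibrin is dissolved by plasmin, which is made from plasminogen by urokinase (Plau) and tissue plasminogen activator (Plat), with urokinase held at the cell surface by its receptor (Plaur). Thrombospondin 1 (Thbs1) is a secreted matrix protein that platelets release and that stromal and myeloid cells also make.

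Of 49851 barcodes, 42449 were kept as single cells: 9049, 10233, 11576 and 11591 in control 1, control 2, DSS 1 and DSS 2, with median depths of 4736 to 6305 unique molecular identifiers (UMIs). The files hold 101051573 to 109472082 UMIs per library. Any pair of libraries shared 36 to 52 barcodes, of which 28 to 41 passed the filters in both, at most 0.418% of the smaller set that passed. Cells were sorted into classes by marker genes, and a class name means cells like that type. Levels are given as CPM, the gene's UMIs per 1e+06 UMIs of the class in that library. A pair of values gives library 1 and then library 2 of a group. The epithelial share of the kept cells was 58.1% and 55.7% in the controls and 12.3% and 31.8% in DSS. The lymphoid share was 6.80% and 12.8% in the controls and 33.9% and 17.1% in DSS. Blood endothelial cells numbered 89, 1, 212 and 33, so that class was described and not tested. The libraries of a group were not alike. Fibroblasts of the inflamed cluster (led by Ptx3, Tnfaip6, Il6 and Has1) made up a share of the fibroblasts of 0.172% and 16.7% in the controls and 1.54% and 54.7% in DSS. The summed level of 12 early-response genes (Fos, Jun, Egr1, Atf3 and the like) in fibroblasts was 8526 and 19999.7 CPM in the controls and 23414 and 19034 CPM in DSS.

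No member passed the test in any class. In the 15 classes where every library had 30 cells or more, 0 of 79 tests of a member reached an adjusted p of 0.05 with edgeR. Before adjustment 8 were below 0.05, and DESeq2 called 0. Of all genes, the share below 0.05 before adjustment ran from 1.36% in pericytes to 16% in colonocytes. Of all genes tested in these classes, 0.115% were called by edgeR and 0.939% by DESeq2. By class, edgeR called 1.12% of genes in epithelial progenitors, 0.174% in colonocytes, 0.0139% in fibroblasts, 0.0123% in innate lymphoid or NK cells, 0.00965% in plasma cells and none in the other 10. Both DSS libraries lay above both control libraries in 11 of the 79 and below them in 6, against 12% and 18.6% of all genes tested. The share for higher levels was 8.13% in T cells, where none of the 4 members tested lay higher. By these shares the members did not stand out from the background. The 11 were F3 and Plat in glia, Tfpi in smooth muscle, F10 in macrophages, Thbd in goblet and plasma cells, Plau in fibroblasts, Plaur in dendritic cells and in innate lymphoid or NK cells, and Thbs1 in pericytes and in the cluster led by Kcnn3 and Fibin. The 6 were F3, Plau and Thbs1 in smooth muscle and Tfpi in epithelial progenitors, fibroblasts and macrophages. After the filter on low counts Thbs1 was tested in 15 classes, F3 in 13, Plaur in 12, Thbd in 11, Tfpi and Plat in 10, Plau in 4, F13a1 in 3 and F10 in 1. With 1 library left out a complete order is easier to reach, and the counts of higher and lower members changed with the library left out. The share of all genes was not taken in that setting, so its counts are not given. In 4 compartments (epithelial, stromal, myeloid and lymphoid) edgeR called 0 of 32 and DESeq2 0, with 3 below 0.05 before adjustment, where edgeR called 0.0113% of genes in the epithelial compartment and none in the other 3. Of all genes, 2.07% in the stromal to 6.3% in the epithelial compartment were below 0.05 before adjustment. What follows are the members' sources and levels, with the fold changes as estimates.

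**Figure D1:**
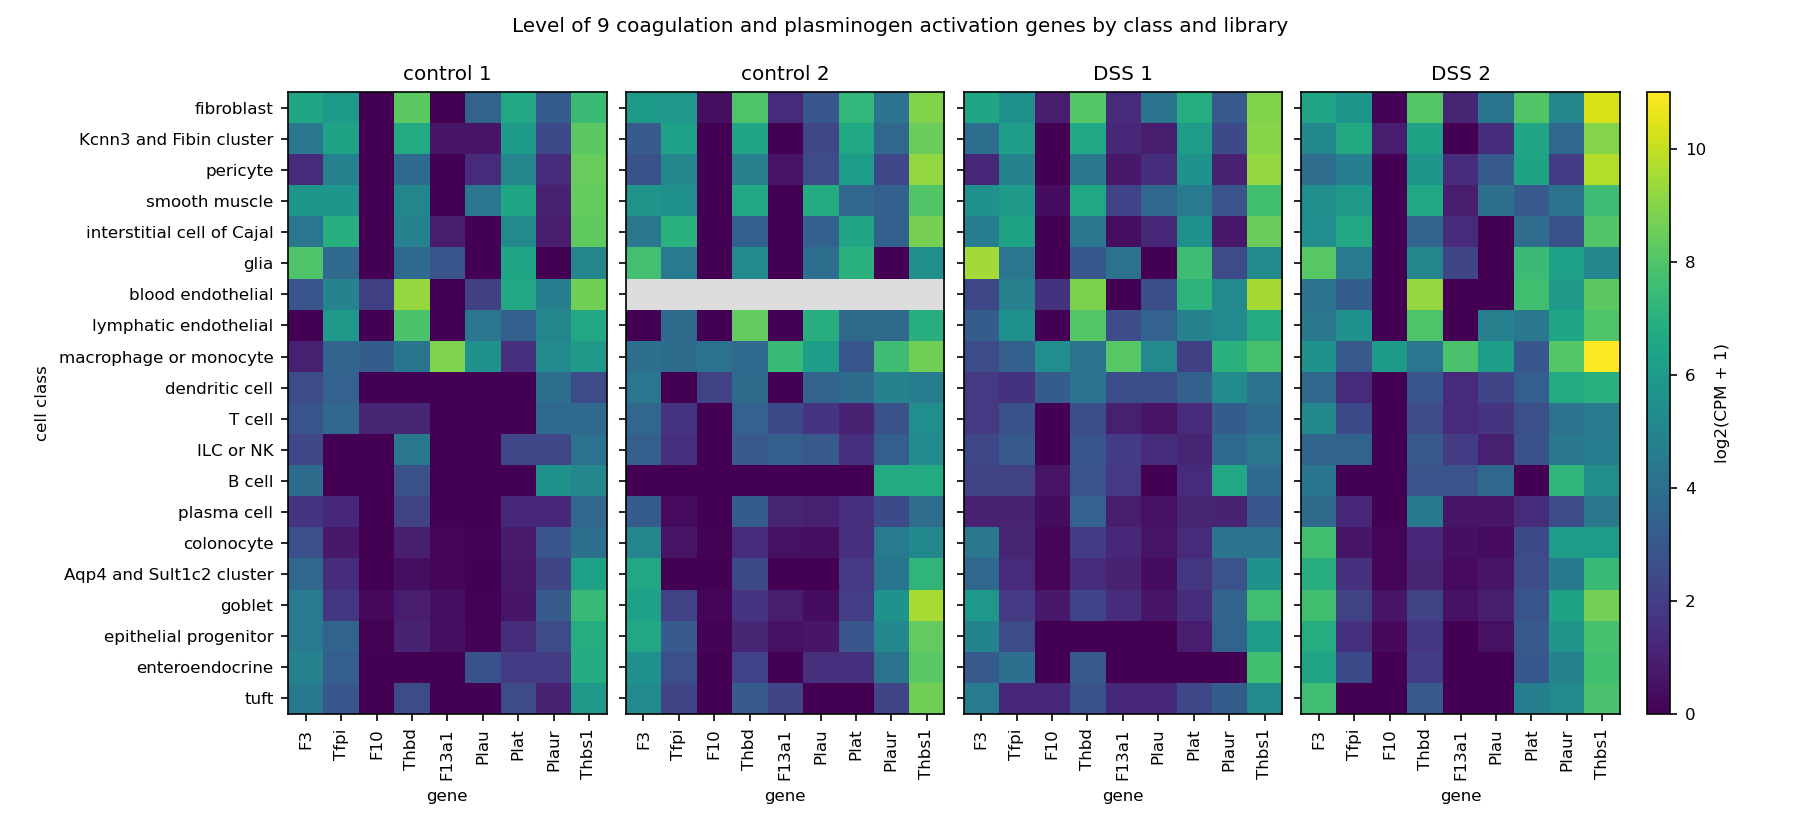
Level of the 9 genes as log2(CPM + 1) in 20 cell classes (rows) for each of the 4 libraries (panels), with grey where a library held fewer than 10 cells of the class. F10 and F13a1 are highest in the macrophage or monocyte row of each library, Thbd is high in the endothelial and fibroblast rows, and F3 in the glia row and, in DSS 2, in the epithelial rows.

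F3, the initiator of clotting (ENSMUSG00000028128, chr3:121723537-121735048, plus strand, build GRCm38), was highest in telocytes and glia and was also read in other stromal cells and in epithelium. Telocytes, the thin fibroblasts under the epithelium, held 596 and 475 CPM in the controls and 370.4 and 371 CPM in DSS. Both DSS libraries lay below both controls, as for 22.9% of all genes in telocytes (log2 fold change -0.40 ± 0.35 (SE), edgeR adjusted p = 0.878). Other fibroblast clusters held less, from 16.8 CPM at the lowest in the Adamdec1 lamina propria cluster to 79.1 CPM at the highest in the Cilp and Ackr4 cluster, leaving out the 2 inflamed cells of control 1. The Cilp and Ackr4 cluster had means of 73.9 CPM in the controls and 52.1 CPM in DSS. Both DSS libraries were lower, as for 17.7% of all genes there. All fibroblasts had means of 76 CPM in the controls and 86.8 CPM in DSS, with overlap. Without the inflamed cluster the means were 77.4 CPM in the controls and 100.4 CPM in DSS. There both DSS libraries were higher, as for 9.57% of all genes. Stromal cells together had means of 54.9 CPM in the controls and 66.1 CPM in DSS. In glia, the supporting cells of the gut nervous system, F3 stood at 250.2 and 211 CPM in the controls and 714 and 282 CPM in DSS. The DSS pair was the higher one, as for 12.2% of all genes in glia. Glia of DSS 1 stood far above the other 3 libraries, and DSS 2 only just above the controls (log2 fold change 1.19 ± 0.56 (SE), edgeR adjusted p = 1.00). In smooth muscle F3 stood at 55 and 50.9 CPM in the controls and 46 and 43.4 CPM in DSS. DSS was the lower pair, as for 12.3% of all genes there (log2 fold change -0.20 ± 0.32 (SE), edgeR adjusted p = 1.00). In the glia the summed level of 10 colonocyte markers was 1869 and 3369 CPM in the controls and 1368 and 4966 CPM in DSS. That of 10 fibroblast markers was 2332 and 3339.9 CPM in the controls and 4049.7 and 5228 CPM in DSS. That of 8 plasma cell markers was 417 and 1924 CPM in the controls and 4511 and 10028 CPM in DSS. The fibroblast and plasma cell sums were higher in both DSS libraries, and the part of these markers in the F3 value was not tested.

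In the epithelium the order of the libraries did not follow the treatment. Colonocytes, the absorptive surface cells, held 5.47 and 31.2 CPM in the controls and 19.3 and 202 CPM in DSS. DSS 2 was the high library, and DSS 1 lay between the controls (log2 fold change 2.45 ± 1.08 (SE), edgeR adjusted p = 0.327). Without DSS 2 the log2 fold change in colonocytes was -0.052. Goblet cells, which make the mucus, held 23 and 78.5 CPM in the controls and 57.7 and 205 CPM in DSS, in the same order of libraries (log2 fold change 1.5 ± 0.64 (SE), edgeR adjusted p = 0.387). The colonocyte class was made of different clusters in the 2 groups: the cluster led by Reg3b, Car1 and Ly6g made up a share of colonocytes of 1.45% and 7.86% in the controls and 40.2% and 71.2% in DSS. Within that cluster F3 stood at 21.4 and 48.8 CPM in the controls and 29 and 208 CPM in DSS, again with DSS 2 the highest. In cluster 0, which held most control colonocytes, it stood at 5.12 and 29.4 CPM in the controls and 4.51 and 83.7 CPM in DSS. There too DSS 2 was the highest, and DSS 1 lay below the controls. The difference between colonocytes and fibroblasts in their DSS effect on F3 was log2 fold change 1.75 ± 1.00 (SE), with an edgeR adjusted p of 0.470. Of the member tests of such differences over 3 pairs of classes, 0 of 26 passed with edgeR, and 4 were below 0.05 before adjustment. edgeR called 1.17% of all genes for colonocytes minus fibroblasts and none for the other 2 pairs. Before adjustment 13.5% of all genes were below 0.05 for colonocytes minus fibroblasts. The share was 3.45% for macrophages minus fibroblasts and 4.16% for colonocytes minus macrophages.

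Epithelial cells held a share of all F3 UMIs of 68.5% and 81.5% in the controls and 34.3% and 85.4% in DSS, beside a share of all UMIs of 83.2% and 75.9% in the controls and 29.1% and 64.2% in DSS. Stromal cells held 30.04% and 15.7% in the controls and 60.7% and 11.3% in DSS, beside a share of all UMIs of 11.4% and 13.7% in the controls and 24.1% and 21.7% in DSS. The stromal share of F3 thus exceeded the stromal share of all UMIs in control 1, control 2 and DSS 1 and was below it in DSS 2. Pooled over libraries, an F3 UMI was found in 51.1% (95% exact interval 46.1% to 56.2%) of glia and 68.4% (95% exact interval 64.7% to 72%) of telocytes, at median depths of 2162 and 4710.5 UMIs. In plasma cells, which served as the measure of free RNA, the share was 2.71% (95% exact interval 2.13% to 3.39%) at a median depth of 12566 UMIs. With each cell thinned to 1000 UMIs the shares were 34.4%, 35.8% and 0.426%, and 5.84% in colonocytes. Macrophages, which are known to make tissue factor when stimulated, held 0.932 and 15.4 CPM in the controls and 4.63 and 48.9 CPM in DSS, with the controls and DSS overlapping. Of the 157 F3 UMIs of this class in DSS, 93 lay in cluster 29, of shallower cells, described below. The summed level of 10 colonocyte markers in the class was 768 and 3320 CPM in the controls and 295 and 2362 CPM in DSS. The part of these markers in the F3 level of the class was not tested.

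The promoter of F3 is shown as 1 example of a member's promoter that holds an AP-1 motif, and it was chosen after the values were seen. It is the 250 bases before the start site (RefSeq, GRCm38.p6, chr3:121723287-121723536, plus strand), with the AP-1 matches in capitals.
F3 promoter: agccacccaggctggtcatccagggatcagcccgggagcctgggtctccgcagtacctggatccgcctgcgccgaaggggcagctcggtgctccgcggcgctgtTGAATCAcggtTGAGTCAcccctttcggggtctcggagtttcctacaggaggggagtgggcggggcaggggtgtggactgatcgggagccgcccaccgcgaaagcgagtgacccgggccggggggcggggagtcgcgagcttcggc
The motif searched was TGANTCA, which reads the same on both strands, and the 2 matches start 146 and 135 bases before the start site. A search of the same length found it in 6.75% of 32851 promoters. Promoters were at hand for 5 of the 9 members (F3, Tfpi, F10, F13a1 and Plaur, in 7 windows). The NF-kB motif GGGANTTCC, searched on both strands, was in none of them and in 1.43% of all.

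Tfpi (ENSMUSG00000027082, chr2:84432855-84476775, minus strand), the inhibitor of tissue factor, was read mostly in stromal cells. Interstitial cells of Cajal, the pacemaker cells of the gut muscle, held 120.4 and 127 CPM in the controls and 81.9 and 97.9 CPM in DSS, but only 21 such cells were in control 2 and the class was not tested. Fibroblasts held 62.2 and 58 CPM in the controls and 44.3 and 53.7 CPM in DSS. Both DSS libraries lay below both controls, as did 22.3% of all genes in fibroblasts (log2 fold change -0.18 ± 0.24 (SE), edgeR adjusted p = 1.00). Smooth muscle stood at 53.9 and 45.1 CPM in the controls and 61 and 61.6 CPM in DSS, with both DSS libraries above both controls, as for 8.73% of all genes there (log2 fold change 0.34 ± 0.33 (SE), edgeR adjusted p = 1.00). Macrophages held 11.2 and 13.9 CPM in the controls and 9.27 and 7.74 CPM in DSS, with DSS below the controls, as for 12% of all genes in that class (log2 fold change -0.54 ± 0.44 (SE), edgeR adjusted p = 1.00). The cluster led by Kcnn3 and Fibin, a stromal cluster with markers of fibroblasts and pericytes alike, ranged over 68.1 to 100.5 CPM. Telocytes ranged over 68 to 113 CPM, with control 1 the highest. In epithelial progenitors, the dividing crypt cells, the level was low, 10.6 and 7.81 CPM in the controls and 4.75 and 1.98 CPM in DSS. DSS was the lower pair there, as for 24.6% of all genes (log2 fold change -1.72 ± 0.53 (SE), edgeR adjusted p = 0.163), the smallest adjusted p of any member in any class, and only 44 progenitors were left in DSS 1.

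Stromal cells held a share of the Tfpi UMIs of 60.1% and 76.5% in the controls and 81.6% and 88.6% in DSS, and epithelial cells 34.3% and 17.5% in the controls and 3.68% and 6.28% in DSS. The endothelium, often named as the source of this inhibitor, stood at 45.2 and 13.1 CPM in the controls and 34 and 29.97 CPM in DSS, and its share of the Tfpi UMIs was 0.118% to 3.48%. The value of control 2 rests on 1 UMI in 19 cells. Endothelial cells held 0.0866% to 1.56% of all UMIs of a library. A Tfpi UMI was found in 19.9% (95% exact interval 19.1% to 20.8%) of fibroblasts and 1.17% (95% exact interval 0.803% to 1.65%) of plasma cells. Thinned to 1000 UMIs per cell, the shares were 5.32% and 0.0388%.

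F10 (ENSMUSG00000031444, chr8:13037308-13056676, plus strand), the gene of factor X, is best known as a liver gene, and here most of its UMIs lay in macrophages or monocytes. Of its few UMIs, 9 of 17 in control 1, 22 of 32 in control 2, 330 of 387 in DSS 1 and 155 of 169 in DSS 2 lay in the macrophage or monocyte class. The class level was 8.39 and 16.1 CPM in the controls and 41.3 and 63.1 CPM in DSS. The DSS pair lay above the control pair (log2 fold change 2.07 ± 0.43 (SE), edgeR adjusted p = 1.00), and in this class 13% of all genes did so. At class level the fold change kept its sign without any 1 library, and without control 2 it rested on the 9 UMIs of control 1.

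At the finer clustering setting most of the macrophage class fell into 3 clusters. Cluster 14 was led by the C1q genes and Ccl12, cluster 23 by Retnla, Clec4e and Il1b with 7 monocyte and 7 macrophage markers, and cluster 29, of shallower cells, by Hpgds and Stab1. Cluster 23 made up a share of the class of 15.4% and 9.83% in the controls and 32.4% and 52% in DSS. It held a share of the class's F10 UMIs of 100% and 95.5% in the controls and 84.8% and 97.4% in DSS. Within cluster 23 the level was 53.4 and 107 CPM in the controls and 123 and 132 CPM in DSS. The DSS libraries lay above the controls, as for 15.9% of all genes there, by a smaller step than in the whole class (log2 fold change 0.67 ± 0.41 (SE), edgeR adjusted p = 0.996). Cluster 14 stood at 0 to 5.83 CPM. The summed level of 10 monocyte markers in the class was 1657 and 1206 CPM in the controls and 2342 and 3309 CPM in DSS, and that of 10 macrophage markers was 39188 and 27408 CPM in the controls and 24586 and 15793 CPM in DSS. An F10 UMI was found in 25.7% (95% exact interval 22.6% to 29.1%) of cluster 23, in 1.66% (95% exact interval 1.02% to 2.56%) of cluster 14 and in 0.256% (95% exact interval 0.103% to 0.528%) of plasma cells.

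Over all kept cells F10 stood at 0.184 and 0.362 CPM in the controls and 3.88 and 1.71 CPM in DSS, the largest fold change of the 9 at that level (log2 fold change 3.31 ± 0.72 (SE), edgeR adjusted p = 0.389). With all cells pooled, more cells of a type and more RNA per cell cannot be told apart. At this level both DSS libraries lay above both controls for 6 of the 9 members, F10, F13a1, Tfpi, Thbd, Plau and Plat, against 23.2% of all genes. edgeR called 0 of the 9 and none of all genes. Before adjustment 3 of the 9 were below 0.05, as were 10.4% of all genes. DESeq2 called F10, and the share of all genes that it called at this level is not given. Myeloid cells were 2.95% and 4.97% of control cells and 14.1% and 6.05% of DSS cells.

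Thbd (ENSMUSG00000074743, chr2:148404466-148408188, minus strand), the thrombin receptor thrombomodulin, was an endothelial and fibroblast gene. Blood endothelial cells held 612 CPM in control 1, 456 in DSS 1 and 615 in DSS 2, and the 1 cell of control 2 held none. Lymphatic endothelial cells held 236 and 329 CPM in the controls and 276 and 247 CPM in DSS, with 18 cells in control 2. The libraries of the 2 groups overlapped in both kinds of endothelium. Fibroblasts held 299 and 251 CPM in the controls and 270.2 and 269 CPM in DSS (log2 fold change 0.09 ± 0.26 (SE), edgeR adjusted p = 1.00).

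Telocytes were the fibroblast cluster with the most Thbd in each library. They held 815 and 1006 CPM in the controls and 490.0 and 420.4 CPM in DSS. DSS lay below the controls in both libraries, as for the 22.9% of genes given above (log2 fold change -0.86 ± 0.36 (SE), edgeR adjusted p = 0.627). The Adamdec1 lamina propria cluster ranged over 157 to 283 CPM, the Pi16 adventitial cluster over 257 to 296 CPM and the Cilp and Ackr4 cluster over 147 to 226 CPM. Fibroblasts held a share of all Thbd UMIs of 66.6% and 82.7% in the controls and 55.5% and 83.8% in DSS, and endothelial cells 12.7% and 0.945% in the controls and 12.8% and 2.25% in DSS, so by number of molecules the fibroblasts led in each library. A Thbd UMI was found in 67.8% (95% exact interval 62.5% to 72.7%) of blood endothelial cells, 71.1% (95% exact interval 67.4% to 74.5%) of telocytes, 51.9% (95% exact interval 50.8% to 53%) of fibroblasts and 10.7% (95% exact interval 9.56% to 11.9%) of plasma cells. Thinned to 1000 UMIs per cell, the shares were 41.6%, 38%, 21% and 1.32%. In plasma cells the level was low, 3.53 and 8.39 CPM in the controls and 10.1 and 21.1 CPM in DSS. It was higher in both DSS libraries, as for 3.24% of all genes in plasma cells (log2 fold change 1.52 ± 0.44 (SE), edgeR adjusted p = 0.926). Plasma cells served as the measure of free RNA, and the part of free RNA in this level was not tested. Goblet cells held 0.816 and 2.2 CPM in the controls and 3.6 and 3.33 CPM in DSS, again with DSS above the controls, as for 13% of all genes there (log2 fold change 1.47 ± 0.55 (SE), edgeR adjusted p = 0.326). The Thbd level over all kept cells was 22.2 and 29.9 CPM in the controls and 47.1 and 48.9 CPM in DSS, also higher in both DSS libraries, and its part in the low levels of plasma and goblet cells was not tested.

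**Figure D2:**
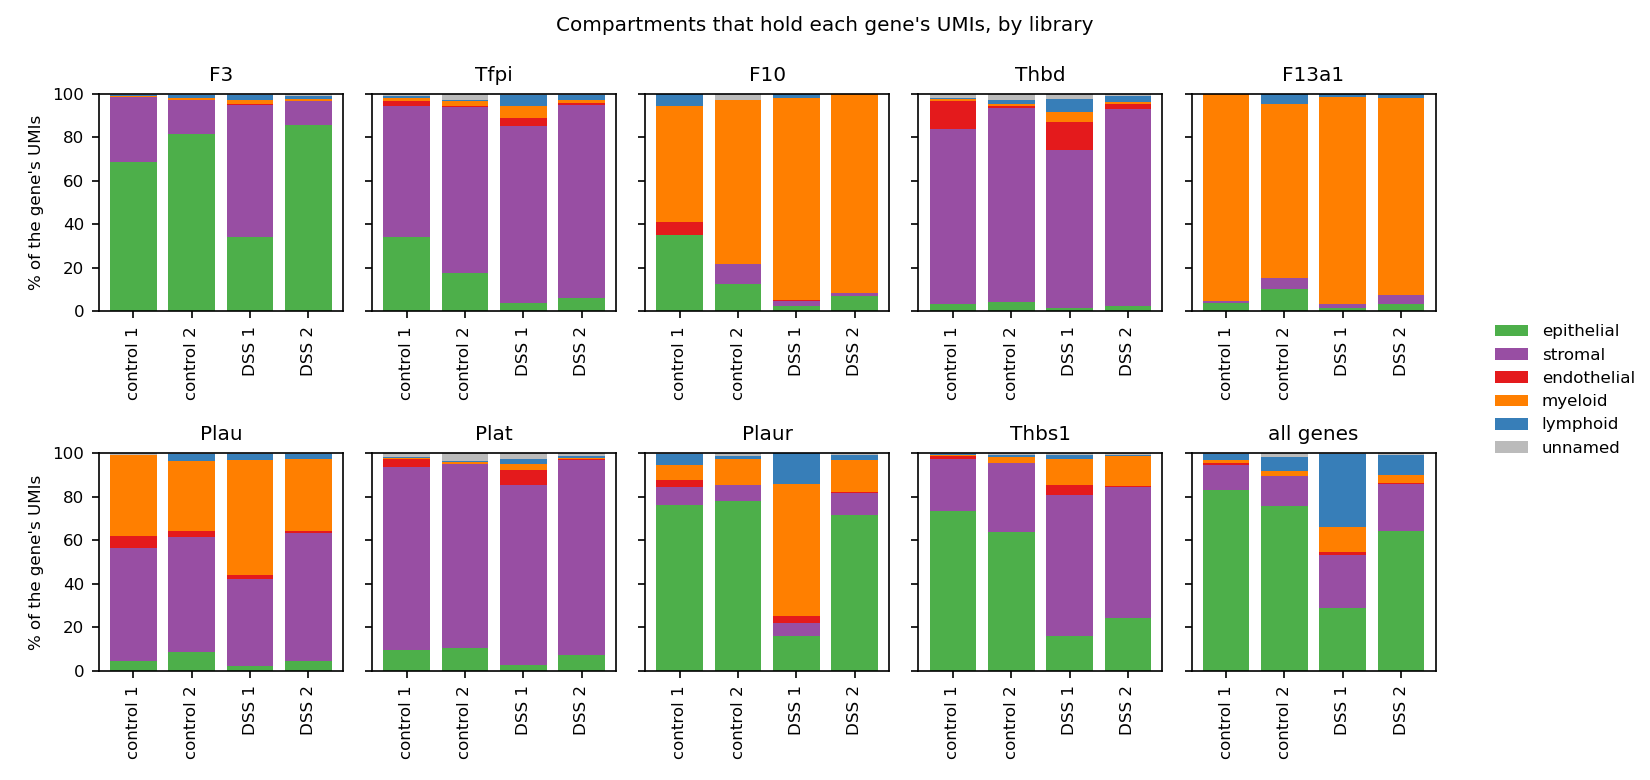
Share of each gene's UMIs that lay in each compartment (stacked bars, in percent), for the 4 libraries, with the share of all UMIs in the last panel. F10 and F13a1 are mostly myeloid, Thbd and Plat mostly stromal, and the epithelial part of Thbs1 is 73.5% and 63.6% in the controls and 15.9% and 24.1% in DSS.

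F13a1 (ENSMUSG00000039109, chr13:36867178-37050244, minus strand), the chain of factor XIII that crosslinks fibrin, marked the macrophage class. It overlaps the genes Gm30489 and Gm49144, and since the use of strand in counting is not stated, its counts are uncertain to that extent. The class held 468 and 168 CPM in the controls and 286 and 229 CPM in DSS. The controls were the extremes, with both DSS libraries between them (log2 fold change -0.30 ± 0.55 (SE), edgeR adjusted p = 1.00). The class held a share of all F13a1 UMIs of 95.4% and 79.8% in the controls and 94.3% and 90.1% in DSS. In cluster 14 the level was 519 and 152 CPM in the controls and 314 and 328 CPM in DSS, and in cluster 23 it was 326 and 276 CPM in the controls and 243 and 174 CPM in DSS, with both DSS libraries below both controls in cluster 23, as for 18.5% of all genes there (log2 fold change -0.52 ± 0.35 (SE), edgeR adjusted p = 0.999). Cluster 29 held a mean of 163 CPM in the controls and 197 CPM in DSS, on 71 and 180 UMIs. F13a1 thus lay in clusters 14, 23 and 29.

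Platelets also hold F13a1. Of 7 platelet markers, Tubb1 and Gp1bb were at 0 in the class in all 4 libraries, and Itga2b, Gp9, Treml1 and Ppbp were at 3.73 CPM or less in every library. Pf4, which macrophages also make, stood at 1659.6 and 494 CPM in the controls and 709 and 483 CPM in DSS, with control 1 the highest as for F13a1. An F13a1 UMI was found in 38.6% (95% exact interval 36.6% to 40.6%) of the class and 0.989% (95% exact interval 0.653% to 1.44%) of plasma cells. Thinned to 1000 UMIs per cell, the shares were 20.8% and 0.0388%. Over all kept cells the F13a1 level was 5.69 and 3.24 CPM in the controls and 24.3 and 6.31 CPM in DSS, with DSS 1 far above the others (log2 fold change 1.75 ± 0.66 (SE), edgeR adjusted p = 0.433), and DSS 1 also held the most cells of this class, 1208 against 227, 407 and 502 in control 1, control 2 and DSS 2.

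Plau (ENSMUSG00000021822, chr14:20836660-20843385, plus strand), urokinase, was a scarce transcript read in macrophages, telocytes, smooth muscle and lymphatic endothelium. Lymphatic endothelial cells held a mean of 68.7 CPM in the controls and 18.4 CPM in DSS. Those means rest on 15 and 10 UMIs, with 18 such cells in control 2. The macrophage class held 45.7 and 69.6 CPM in the controls and 35.7 and 68.8 CPM in DSS, with the groups overlapping (log2 fold change -0.15 ± 0.42 (SE), edgeR adjusted p = 1.00). Here cluster 14 led, with 56.1 and 98.1 CPM in the controls and 47.8 and 139 CPM in DSS, and cluster 23 held 5.93 and 35.8 CPM in the controls and 15.8 and 32.4 CPM in DSS. Telocytes held 103 and 58 CPM in the controls and 98.5 and 115 CPM in DSS, and control 2 was the low library. Over all fibroblasts the level was 10.3 and 6.88 CPM in the controls and 18 and 18.1 CPM in DSS. DSS was the higher pair, as for 7.27% of all genes in this class (log2 fold change 1.21 ± 0.32 (SE), edgeR adjusted p = 1.00). In fibroblasts without the inflamed cluster it was 10.3 and 7.08 CPM in the controls and 18.3 and 27.8 CPM in DSS (log2 fold change 1.48 ± 0.32 (SE), edgeR adjusted p = 0.419). Telocytes, rich in Plau, were 89 of 1161 and 79 of 1393 of these cells in the controls and 222 of 1981 and 256 of 1639 in DSS. That is a larger share in both DSS libraries, and its part in the Plau level was not tested.

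In smooth muscle Plau stood at 18.7 and 107 CPM in the controls and 11.9 and 15.6 CPM in DSS. Control 2 stood far above the other 3 libraries, and DSS lay below both controls, as for 12.3% of all genes there (log2 fold change -2.12 ± 0.67 (SE), edgeR adjusted p = 1.00). Without control 2 the log2 fold change was -0.50. The early-response genes in smooth muscle summed to 4892 and 22776 CPM in the controls and 11713 and 15120.2 CPM in DSS, with control 2 again the highest, and their part in the result was not tested. The stromal share of the Plau UMIs was 51.9% and 52.8% in the controls and 39.8% and 58.8% in DSS, and the myeloid share 37.4% and 32% in the controls and 52.7% and 33.2% in DSS. A Plau UMI was found in 15.6% (95% exact interval 14.2% to 17.1%) of the macrophage class, 25.1% (95% exact interval 21.8% to 28.6%) of telocytes and 0.586% (95% exact interval 0.335% to 0.95%) of plasma cells.

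Plat (ENSMUSG00000031538, chr8:22757727-22782844, plus strand), tissue plasminogen activator, was a gene of the outer fibroblasts, glia and blood endothelium. The Pi16 adventitial fibroblasts, which lie around larger vessels, held 168 and 228 CPM in the controls and 213 and 384 CPM in DSS. DSS 2 was the high library (log2 fold change 0.66 ± 0.31 (SE), edgeR adjusted p = 0.999). The Cilp and Ackr4 cluster ranged over 104.9 to 190.0 CPM, and the inflamed cluster stood at 234 CPM in control 2, 213 in DSS 1 and 316 in DSS 2. The Adamdec1 lamina propria cluster was low, 9.81 to 33.4 CPM. Over all fibroblasts Plat stood at 93.4 and 154 CPM in the controls and 109.8 and 258 CPM in DSS, with control 2 above DSS 1 (log2 fold change 0.68 ± 0.45 (SE), edgeR adjusted p = 1.00). Leaving out the inflamed cluster gave 93.5 and 139 CPM in the controls and 108 and 193 CPM in DSS, the same order of libraries (log2 fold change 0.43 ± 0.32 (SE), edgeR adjusted p = 1.00).

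Telocytes, low in Plat, held 13.3 and 14.5 CPM in the controls and 50.3 and 76 CPM in DSS. DSS exceeded the controls, as for 13.7% of all genes in telocytes (log2 fold change 2.29 ± 0.44 (SE), edgeR adjusted p = 0.185). These controls rest on few UMIs, since the telocyte counts for Plat were 4, 5, 74 and 102 in control 1, control 2, DSS 1 and DSS 2. Glia held 86.5 and 131 CPM in the controls and 193 and 178 CPM in DSS, with both DSS libraries above both controls, as for 12.2% of all genes in glia (log2 fold change 0.86 ± 0.43 (SE), edgeR adjusted p = 1.00). The fibroblast markers in glia, given with F3, were also higher in both DSS libraries, and their part in the Plat level was not tested. Blood endothelial cells held 98.2 CPM in control 1, 139 in DSS 1 and 205 in DSS 2. Stromal cells held a share of the Plat UMIs of 84.3% and 84.5% in the controls and 82.5% and 89.7% in DSS, and endothelial cells 0.0552% to 7.16%. A Plat UMI was found in 68.8% (95% exact interval 66.1% to 71.3%) of adventitial fibroblasts, 28.2% (95% exact interval 23.8% to 33%) of glia and 1.65% (95% exact interval 1.2% to 2.2%) of plasma cells. Thinned to 1000 UMIs per cell, the shares were 21.5%, 14.7% and 0.0775%.

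**Figure D3:**
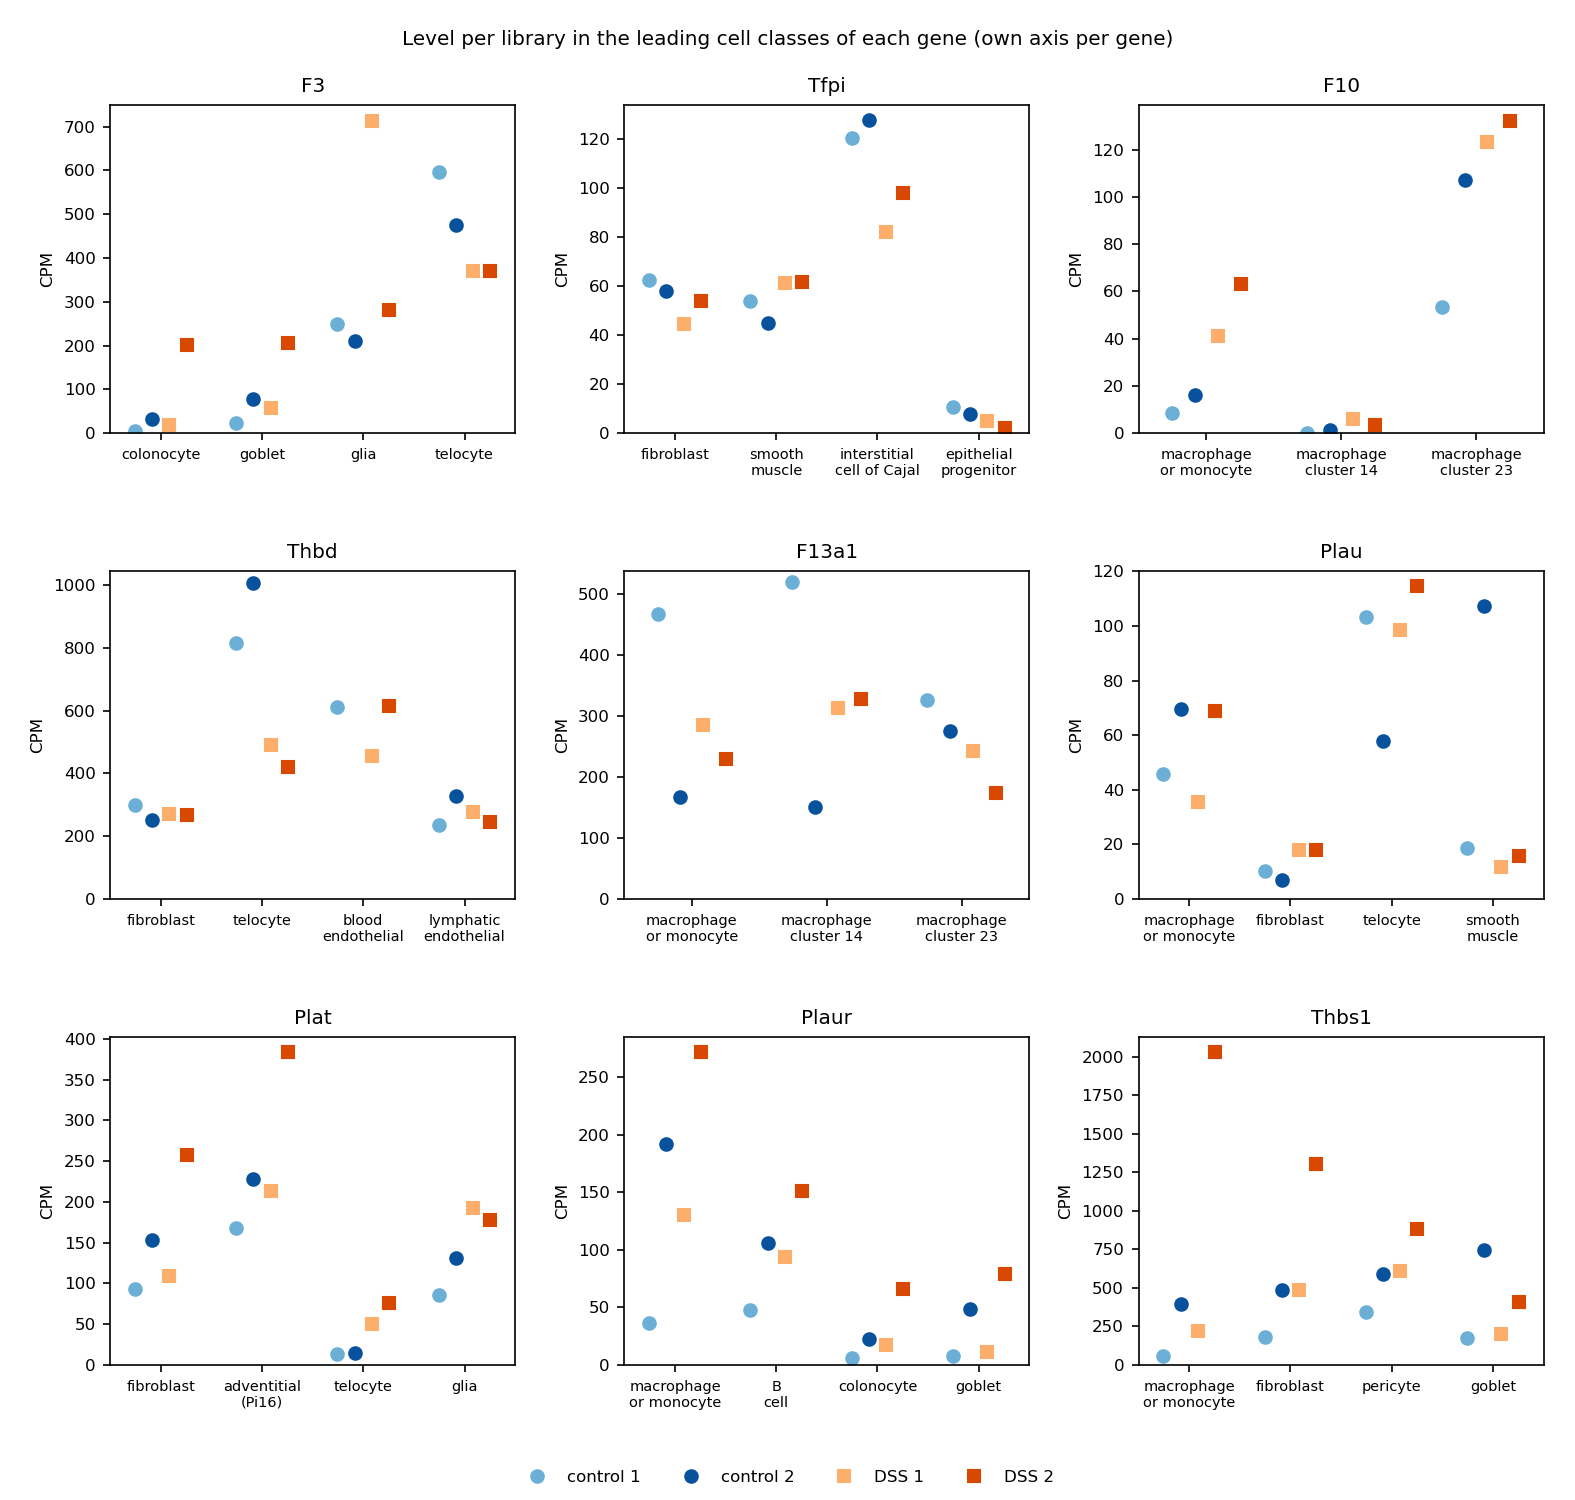
Level in CPM of each gene in its leading classes or clusters, 1 point per library (circles for control, squares for DSS; each gene has its own axis from 0), leaving out points of fewer than 10 cells. Thbd in telocytes is lower in both DSS libraries, F10 in the macrophage class is higher in both, and Plaur and Thbs1 are highest in DSS 2 in most of the classes shown.

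Plaur (ENSMUSG00000046223, chr7:24462484-24475968, plus strand), the urokinase receptor, was read in myeloid cells, B cells and epithelium. The macrophage class held 36.3 and 192 CPM in the controls and 130.1 and 272 CPM in DSS. Control 1 was the low library and control 2 lay above DSS 1 (log2 fold change 0.81 ± 0.78 (SE), edgeR adjusted p = 1.00). Cluster 23 held 107 and 296 CPM in the controls and 177 and 369 CPM in DSS. Cluster 14 held 25.1 and 213 CPM in the controls and 119 and 244 CPM in DSS, in the same order of libraries. Dendritic cells held 14.9 and 27.4 CPM in the controls and 38.8 and 106 CPM in DSS, with both DSS libraries above both controls, as for 13% of all genes there (log2 fold change 1.67 ± 0.62 (SE), edgeR adjusted p = 0.663). B cells held 47.5 and 106 CPM in the controls and 94.1 and 151 CPM in DSS (log2 fold change 0.84 ± 0.47 (SE), edgeR adjusted p = 0.964). Innate lymphoid or NK cells held 3.99 and 9.19 CPM in the controls and 12.7 and 20.4 CPM in DSS, DSS again the higher pair, as for 7.38% of all genes (log2 fold change 1.22 ± 0.70 (SE), edgeR adjusted p = 1.00). Neutrophils, 19 in all, held 551 CPM in DSS 1, from 8 cells, and 359 in DSS 2, from 10 cells.

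Colonocytes held 6.46 and 22.5 CPM in the controls and 17.6 and 65.8 CPM in DSS, and DSS 1 lay between the controls (log2 fold change 1.40 ± 0.69 (SE), edgeR adjusted p = 0.375). Goblet cells held 7.89 and 49 CPM in the controls and 11.2 and 79.1 CPM in DSS (log2 fold change 0.81 ± 0.96 (SE), edgeR adjusted p = 0.786). In goblet cells both libraries numbered 2 stood far above both libraries numbered 1, whatever the treatment. In the Reg3b and Ly6g cluster of colonocytes Plaur stood at 7.13 and 15.5 CPM in the controls and 19.5 and 63.9 CPM in DSS, and in cluster 0 at 4.77 and 20.2 CPM in the controls and 12.5 and 61.7 CPM in DSS. Epithelial cells held a share of the Plaur UMIs of 76% and 77.9% in the controls and 16.2% and 71.5% in DSS, and myeloid cells 7.11% and 11.9% in the controls and 60.6% and 15.1% in DSS, so DSS 1 alone had most of its Plaur in myeloid cells. A Plaur UMI was found in 37.4% (95% exact interval 35.4% to 39.4%) of the macrophage class, 22.5% (95% exact interval 21.7% to 23.4%) of colonocytes and 2.16% (95% exact interval 1.65% to 2.78%) of plasma cells. Thinned to 1000 UMIs per cell, the shares were 12.9%, 3.35% and 0.116%.

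The promoter of Plaur, shown beside that of F3, is the 250 bases before the start site (RefSeq, GRCm38.p6, chr7:24462233-24462482, plus strand), with the AP-1 match in capitals.
Plaur promoter: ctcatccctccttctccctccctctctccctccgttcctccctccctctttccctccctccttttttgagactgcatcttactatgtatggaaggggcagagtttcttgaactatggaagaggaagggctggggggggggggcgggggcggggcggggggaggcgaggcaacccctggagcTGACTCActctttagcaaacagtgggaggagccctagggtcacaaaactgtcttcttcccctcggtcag
The match starts 69 bases before the start site. It is a match of letters only, and binding was not measured here.

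Thbs1 (ENSMUSG00000040152, chr2:118111876-118127133, plus strand), thrombospondin 1, was read in myeloid, stromal and epithelial cells alike. It overlaps the gene Gm29233, with the same uncertainty as for F13a1. The macrophage class held 58.7 and 396 CPM in the controls and 219 and 2030.2 CPM in DSS. DSS 2 stood far above the rest, and DSS 1 lay between the controls (log2 fold change 2.30 ± 1.24 (SE), edgeR adjusted p = 1.00). Fibroblasts held 180.1 and 488 CPM in the controls and 487 and 1304 CPM in DSS, with control 2 and DSS 1 alike (log2 fold change 1.54 ± 0.61 (SE), edgeR adjusted p = 1.00). Pericytes, the mural cells of small vessels, held 344 and 588 CPM in the controls and 612 and 881 CPM in DSS, and both DSS libraries lay above both controls, as for 5.9% of all genes in this class (log2 fold change 0.80 ± 0.42 (SE), edgeR adjusted p = 1.00). The cluster led by Kcnn3 and Fibin held 303 and 363 CPM in the controls and 511 and 493 CPM in DSS, with DSS above the controls, as for 9.99% of all genes there (log2 fold change 0.68 ± 0.37 (SE), edgeR adjusted p = 1.00). Smooth muscle held 337 and 261 CPM in the controls and 202 and 194 CPM in DSS. Both DSS libraries lay below both controls there, as for 12.3% of all genes in smooth muscle (log2 fold change -0.56 ± 0.38 (SE), edgeR adjusted p = 1.00).

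The inflamed fibroblast cluster was the richest in Thbs1 of the fibroblast clusters in control 2, DSS 1 and DSS 2. Its level was 1291 CPM in control 2, 1582 in DSS 1 and 1864 in DSS 2, and it held a share of the fibroblasts' Thbs1 UMIs of 1.09% and 41.6% in the controls and 6.79% and 75.3% in DSS. Without it fibroblasts stood at 178 and 338 CPM in the controls and 464 and 679.6 CPM in DSS, and the DSS libraries lay above the controls, as for 9.57% of all genes (log2 fold change 1.22 ± 0.36 (SE), edgeR adjusted p = 0.760). The Cilp and Ackr4 cluster held 267 and 455 CPM in the controls and 729 and 872 CPM in DSS (log2 fold change 1.22 ± 0.33 (SE), edgeR adjusted p = 0.910), and the adventitial cluster 124 and 234 CPM in the controls and 282 and 559 CPM in DSS (log2 fold change 1.29 ± 0.39 (SE), edgeR adjusted p = 0.999). Both clusters had both DSS libraries above both controls, as for 8.54% and 9.35% of all genes in them. In the Adamdec1 lamina propria cluster, at 113 and 267 CPM in the controls and 171 and 835 CPM in DSS, DSS 1 lay between the controls. The summed level of the 12 early-response genes in pericytes was 9398 and 23451 CPM in the controls and 20519 and 20715 CPM in DSS, and in fibroblasts, as given above, it was also lowest in control 1. Their part in the Thbs1 levels was not tested.

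In the macrophage class cluster 23 held 71.2 and 864 CPM in the controls and 440.3 and 3775 CPM in DSS. Cluster 14 held 57.3 and 281 CPM in the controls and 131 and 615 CPM in DSS, in the same order of libraries. The 6 platelet markers of the class other than Pf4 were near 0, as given above. The 10 neutrophils of DSS 2 held 5022 CPM and the 8 of DSS 1 1339. The summed level of 9 neutrophil markers in the macrophage class was 96 and 264 CPM in the controls and 94.7 and 267 CPM in DSS, with 5 to 9 of them read. It was higher in the libraries numbered 2, as Thbs1 was within each group, and its part in the Thbs1 level was not tested. Of these markers S100a8 was at 0.932 and 0 CPM in the controls and 0.376 and 0.407 CPM in DSS, and Retnlg at 13 and 0 CPM in the controls and 0 and 0.814 CPM in DSS. Most of the sum thus lay in the other markers of the list, which are not given singly. The presence of neutrophils in the class was not tested. The difference between colonocytes and the macrophage class in the DSS effect on Thbs1 was log2 fold change -1.76 ± 0.64 (SE), and that between colonocytes and fibroblasts log2 fold change -1.14 ± 0.34 (SE), with edgeR adjusted p of 0.995 and 0.125.

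**Figure D4:**
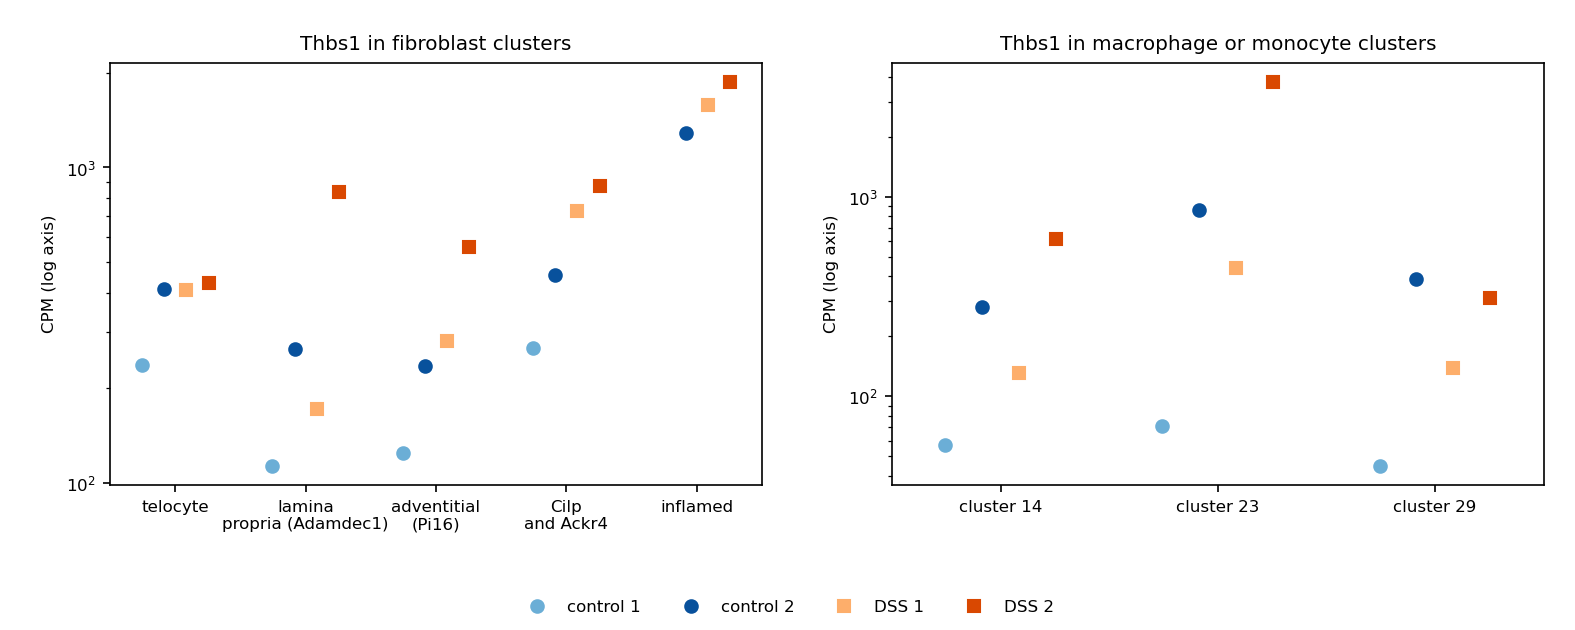
Thbs1 in CPM (log axis) in 5 fibroblast clusters and 3 macrophage or monocyte clusters, 1 point per library, leaving out points of fewer than 10 cells. The inflamed fibroblasts stand above 1000 CPM in control 2, DSS 1 and DSS 2, and cluster 23 of the macrophage class is lowest in control 1, at 71.2 CPM, and highest in DSS 2, at 3775 CPM.

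In the epithelium Thbs1 was read in goblet cells, progenitors and colonocytes. Colonocytes held 15.7 and 34.1 CPM in the controls and 17.8 and 63.8 CPM in DSS, with the groups overlapping (log2 fold change 0.60 ± 0.57 (SE), edgeR adjusted p = 0.663). Goblet cells held 173 and 747 CPM in the controls and 199 and 409 CPM in DSS. Control 2 was the high library, and DSS 1 lay close to control 1 (log2 fold change -0.43 ± 0.61 (SE), edgeR adjusted p = 0.823). Progenitors held 111 and 332 CPM in the controls and 64.9 and 222 CPM in DSS (log2 fold change -0.53 ± 0.52 (SE), edgeR adjusted p = 0.712). Epithelial cells held a share of the Thbs1 UMIs of 73.5% and 63.6% in the controls and 15.9% and 24.1% in DSS, stromal cells 23.7% and 31.7% in the controls and 64.8% and 60.4% in DSS and myeloid cells 0.588% and 3.05% in the controls and 11.6% and 14% in DSS. The main source was epithelial in both controls and stromal in both DSS libraries, while the epithelial share of all UMIs was 83.2% and 75.9% in the controls and 29.1% and 64.2% in DSS. A Thbs1 UMI was found in 77.8% (95% exact interval 76% to 79.4%) of inflamed fibroblasts, 78.1% (95% exact interval 76.3% to 79.9%) of goblet cells and 8.53% (95% exact interval 7.51% to 9.65%) of plasma cells. Thinned to 1000 UMIs per cell, the shares were 58.7%, 22.9% and 1.59%.

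A feature that several members shared was the order of the libraries. In 48 of the 79 pairs of member and class, control 2 was above control 1 and DSS 2 above DSS 1, against 40.5% of all genes tested. It was so in 11 of 12 classes for Plaur, 12 of 15 for Thbs1, 8 of 10 for Plat and 9 of 13 for F3, but in 1 of 10 for Tfpi and 4 of 11 for Thbd. The labels give the numbers and say nothing of what the libraries of a number share.

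The other 53 genes of clotting, its inhibitors and clot lysis that were listed gave no call either. In 15 classes 0 of 265 tests passed with edgeR in either direction, and DESeq2 called 6, all higher in DSS: S100a10 and Anxa2 in epithelial progenitors, S100a10, Serpine2 and Thbs4 in goblet cells and Cd47 in colonocytes. DESeq2 called 0.939% of all genes tested in these classes. In goblet cells 22 of the 53 were tested, 17 were higher in DSS and 8 were below 0.05 before adjustment, with a median log2 fold change of 0.68 against 0.00 over all genes and 13.5% of all genes below 0.05. In fibroblasts 27 were tested, 14 were higher and 5 were below 0.05 before adjustment, with a median of 0.09 against 0.01 and 3.27% of all genes below 0.05. In the macrophage class 19 were tested, 13 were higher and 0 were below 0.05, with a median of 0.11 against -0.01 and 1.47% of all genes below 0.05. In colonocytes 27 were tested, 17 were higher and 6 were below 0.05, with a median of 0.15 against 0.00 and 16% of all genes below 0.05.

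The listed genes with the highest levels were surface partners of plasminogen and of thrombospondin. S100a10 and Anxa2 form a complex that binds plasminogen and its activators on the cell surface. S100a10 led in all of the 6 classes looked at (fibroblasts, macrophages, blood endothelium, colonocytes, glia and goblet cells). Its level in colonocytes was 2069 and 1903 CPM in the controls and 1955 and 2856 CPM in DSS. In fibroblasts it was 1999 and 1093 CPM in the controls and 754 and 799.8 CPM in DSS. In the macrophage class it stood at 752 and 693 CPM in the controls and 432 and 1139.9 CPM in DSS. Control 1 was the highest library in fibroblasts and DSS 2 in colonocytes and the macrophage class. Anxa2 in colonocytes stood at 581 and 762 CPM in the controls and 847 and 1568 CPM in DSS. In the macrophage class it stood at 283 and 310.0 CPM in the controls and 219 and 675 CPM in DSS, so that DSS 2 was its highest library in both. Lrp1, an endocytic receptor that clears protease and inhibitor complexes, stood in fibroblasts at 604 and 814 CPM in the controls and 661 and 742 CPM in DSS. Cd47, a receptor of thrombospondin 1, stood in fibroblasts at 721 and 663 CPM in the controls and 622 and 641 CPM in DSS and in the macrophage class at 237 and 229 CPM in the controls and 266 and 307 CPM in DSS. Plgrkt, a plasminogen receptor, stood in colonocytes at 250.5 and 224 CPM in the controls and 210.2 and 214 CPM in DSS. Blood endothelial cells held S100a10, Cd47 and Gas6 as their top 3 by mean, a mean to which the 1 cell of control 2 contributed.

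By likeness of pattern over 60 points, the 15 tested classes in 4 libraries, each member had other genes that followed it, ranked by Pearson's r of log2(CPM + 1) among 11182 genes. The points share libraries and classes, so r is a description. F10 was followed by Clec5a (r = 0.91), AC166110.3 (r = 0.91) and P2ry13 (r = 0.90), F13a1 by Lyz1 (r = 0.91), Csf3r (r = 0.90) and Trem2 (r = 0.90) and Plaur by Ap1b1 (r = 0.73), Bmp2k (r = 0.72) and Irf8 (r = 0.72). Thbd was followed by Ltbp4 (r = 0.91), Mmp23 (r = 0.90) and Col1a2 (r = 0.90), Plat by Dlc1 (r = 0.93), Kirrel (r = 0.91) and Sparc (r = 0.91) and Tfpi by Gas1 (r = 0.90), P3h3 (r = 0.90) and Uggt2 (r = 0.90). Plau was followed by Fxyd2 (r = 0.85), Tnfaip2 (r = 0.84) and Nhsl2 (r = 0.78), F3 by Pdp1 (r = 0.76), Sema3b (r = 0.75) and Ephb2 (r = 0.74) and Thbs1 by Tle1 (r = 0.79), Rnf11 (r = 0.77) and Mcfd2 (r = 0.75). The values of r were lowest for Plaur, F3 and Thbs1.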

How the data were processed

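The authors deposited 4 single-cell libraries as whole-number counts of UMIs per gene and barcode. Per the submitters' processing notes, the tool was Cell Ranger 6.1.1 and the genome GRCm38. Whether the counting used strand is not given in the sources used here. Symbols and positions matched GENCODE M21 for all 55450 genes.

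Barcodes under 500 UMIs or 250 genes, or over 25% mitochondrial, were dropped, and 2.92% to 5.38% per library were removed as doublets. The mitochondrial limit removed 14.0% and 17.4% of barcodes in the controls and 5.16% and 6.42% in DSS. Cells were clustered in scanpy 1.11.5 with leidenalg 0.10.2 (2000 variable genes without the 9 members, 40 components, 20 neighbours, 38 clusters) and named from marker lists. Names of some clusters were adjusted after the clusters were seen. The members, marker lists and pathway list were chosen with earlier results of these data known, and the early-response list after the levels were seen.

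UMIs were summed per library and class and tested in edgeR 4.0.16 (R 4.3.3; TMM, filterByExpr with a minimum count of 10, quasi-likelihood test) where every library of the class held 30 cells or more. Adjustment was by Benjamini-Hochberg over all genes of a class. DESeq2 1.42.0 was an alternative, as were other filters, clusterings and left-out libraries. The script was tested on simulated counts. All 9 members are named, with the 3 genes most like each in pattern and the 3 pathway genes of the highest mean level per class. Intervals of shares are exact (Clopper-Pearson, 95%) and cover counting error only. Shares were also taken after thinning each cell to 1000 UMIs, which left out 283, 766, 400 and 516 shallower cells. A cluster of 50 cells of control 2, led by genes of the small intestine, was left unnamed.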

Additional observations from a re-analysis of the deposited data

Results flagged for a closer look

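For 5 members, both DSS libraries lay above both controls in at least 1 tested cell class or fibroblast cluster and below both in another. The estimated effects there pointed opposite ways. Where a member had more than 1 such class or cluster, the largest rise and the largest fall were taken, so each gap is the widest. None of these differences was tested. Plau had a log2 fold change of 1.21 in fibroblasts and -2.12 in smooth muscle, a gap of 3.33. Thbd had 1.52 in plasma cells and -0.86 in telocytes, a gap of 2.38. Plasma cells served as the measure of free RNA, and the part of free RNA in their level was not tested. Tfpi had 0.34 in smooth muscle and -1.72 in epithelial progenitors, a gap of 2.06. Thbs1 had 1.29 in the Pi16 adventitial fibroblasts and -0.56 in smooth muscle, a gap of 1.86 before rounding of its parts. F3 had 1.19 in glia and -0.44 in the Cilp and Ackr4 fibroblasts, a gap of 1.63. With 2 libraries in each group, such a complete order of the libraries is frequent, as the shares over all genes in the results show. The share of all genes with opposite orders in 2 classes or clusters was not taken.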

How the results depend on the processing

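Every count of members passing edgeR's test was 0, and the alternatives below are counts of calls. For the 79 tests over classes the count was 12 of 132 with no filter on low counts, where 1.24% of all tests were called. For the pathway list it was 13 with no filter and 6 by DESeq2, where 1.24% and 0.939% of all tests over classes were called. For the compartments it was 3 with no filter, for all kept cells 1 with no filter and 1 by DESeq2, and for the pairs of classes 1 with no filter. The share of all tests called is not given for these 3 levels, so their counts have no background beside them. Fits without 1 library leave 1 library in a group, so their calls are not counted here. Other size factors, doublets kept, stricter cell filters and finer clusters left the count over classes at 0.

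With the replicate number as a block the counts were 12 of 79 over classes and 12 over the pathway list, where 2.26% of all tests over classes were called. Over compartments the count was 2, and the share of all tests called there is not given. The 12 members were F3 in colonocytes, goblet cells and macrophages, Plaur in colonocytes and dendritic cells, Thbs1 in dendritic cells, fibroblasts and macrophages, Tfpi in progenitors, Plau in fibroblasts, F10 in macrophages and Thbd in plasma cells. The correlation of same-numbered libraries ran from 0.0146 to 0.515 over classes, but with only 2 pairs the numbers do not establish a pairing.

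All 20 fold changes followed kept direction and side of the threshold with DESeq2, other size factors, doublets kept, stricter cell filters and finer clusters. With no filter on low counts 8 passed the threshold, and 8 did with the replicate number as a block. Of all tests over classes, 1.24% and 2.26% were called in these settings. Passing is not counted for fits without 1 library. Of 240 fold changes under an alternative, 7 reversed. All 7 came from leaving out 1 library, and the ranges over the 4 such fits were as follows. F3 in colonocytes ran from -0.052 (without DSS 2) to 4.28, Plat in fibroblasts from -0.032 (without DSS 2) to 1.15 and Thbd in fibroblasts from -0.066 (without control 2) to 0.21. Thbs1 in goblet cells ran from -1.11 to 0.76 (without control 2), F13a1 in macrophages from -0.86 to 0.68 (without control 1) and Plau in macrophages from -0.64 to 0.21 (without DSS 1), with 0.17 without control 2. With libraries left out the arm has 1 library, taken to vary like the rest. The cause of these changes was not tested. Depth limits F10 and Plau, whose controls rest on few UMIs, and blood endothelium, with 1 cell in control 2.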
